A study of Mus musculus with 24 samples.

Results

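The prepachytene piRNA clusters of the mouse were followed here through 12 small RNA libraries, together with the RNA of the genes they are named for. Every cluster whose name carries the prepachytene class was taken, 84 of 214, except those of Mafg, Map3k9, Ppp1r15b and Shank3, which left 80. The choice was made by name, with earlier results of these data known. Reads per cluster had been counted in enriched fractions of pachytene spermatocytes (PS) and round spermatids (RS) from testes of wild-type mice, of mice heterozygous for a Ddx4 knock-in allele and of mice homozygous for it, with 2 libraries for each of the 6 groups. RNA was measured in round spermatids of the same 3 genotypes (2 libraries each) and in libraries labelled CB, whose cell type the labels give only as germ cells, from heterozygotes and homozygotes (3 libraries each). The labels do not expand CB, do not describe the knock-in allele beyond the gene, give no age, and do not say that libraries of a group came from separate animals. P-values therefore measure the spread between libraries, which may be technical.

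piRNAs are small RNAs bound by PIWI proteins that silence transposons in germ cells. They are cut from long single-stranded transcripts of defined loci, the piRNA clusters. Prepachytene clusters are active before the pachytene stage of meiosis, and many of them are the transcripts of ordinary protein-coding genes. Pachytene clusters, driven by the transcription factor MYBL1 (A-MYB), are mostly intergenic and give most of the piRNAs of spermatocytes and spermatids. Hybrid clusters have features of both classes. DDX4, the mouse homologue of Vasa, unwinds RNA in the germ granules where piRNAs are made.

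The stretch just upstream of a cluster's gene is shown for 3 members, because clusters of the classes are set apart by how they are transcribed. These are the 250 bases before the start of Phf20 and Cbfa2t2, the members with the most reads among those with an entry, and of Tfcp2l1, the member that differed most between homozygous and wild-type spermatids. Sequences are RefSeq's for GRCm38.p6, on the plus strand, at chr2:156196397-156196646 for Phf20, chr2:154436234-154436483 for Cbfa2t2 and chr1:118627695-118627944 for Tfcp2l1. Capitals mark matches to TAACNG or CAACNG, letters of the MYB type, searched on both strands.
Phf20: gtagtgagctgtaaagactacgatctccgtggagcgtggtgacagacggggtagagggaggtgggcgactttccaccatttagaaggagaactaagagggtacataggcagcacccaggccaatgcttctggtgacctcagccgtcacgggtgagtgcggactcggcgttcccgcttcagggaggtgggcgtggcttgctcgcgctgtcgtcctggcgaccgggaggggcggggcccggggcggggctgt
Cbfa2t2: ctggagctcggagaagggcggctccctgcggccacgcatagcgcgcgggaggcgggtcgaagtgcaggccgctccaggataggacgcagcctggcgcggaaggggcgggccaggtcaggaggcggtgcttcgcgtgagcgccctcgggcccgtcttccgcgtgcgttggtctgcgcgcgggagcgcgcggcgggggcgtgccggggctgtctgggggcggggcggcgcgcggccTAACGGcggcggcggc
Tfcp2l1: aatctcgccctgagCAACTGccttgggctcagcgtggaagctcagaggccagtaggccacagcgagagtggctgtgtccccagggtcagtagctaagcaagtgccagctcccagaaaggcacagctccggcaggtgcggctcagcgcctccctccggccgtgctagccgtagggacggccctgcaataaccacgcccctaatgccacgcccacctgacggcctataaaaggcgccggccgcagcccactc

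The stretches of Phf20, Cbfa2t2 and Tfcp2l1 hold 20, 41 and 16 CG pairs and 64.0, 78.4 and 65.2% G and C. An entry whose start lay within 1000 bases of the end of the cluster was found for 56 of the 77 members named for a gene. Their median was 19 CG pairs and 64.6% G and C, against 6 pairs and 52.0% over 27025 promoters of the same length, 1 per gene. The 16 hybrid clusters with such an entry had medians of 23.5 pairs and 69.0%, and the 2 pachytene clusters 27.5 pairs and 74.2%. A match to the MYB-type letters was present in 21 of the 56 members (37.5%) and in 43.0% of all promoters. It was present in 7 of the 16 hybrid and 1 of the 2 pachytene clusters. A match is a description of the letters, not a binding site.

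Each small RNA library held 9.23 to 27.3 M reads on clusters, and the 2 homozygous RS libraries were the shallowest, with 11.7 and 9.23 M reads. The cluster profiles did not sort by the labels of cell type or genotype. Over the 130 hybrid and pachytene clusters, which are no members, the Spearman correlation between the libraries labelled heterozygous PS and those labelled wild-type RS was 0.995 to 0.997, and between heterozygous PS and wild-type PS 0.973 to 0.975. Libraries labelled homozygous PS correlated at 0.989 to 0.994 with heterozygous RS and at 0.957 to 0.961 with wild-type PS. Libraries labelled homozygous RS correlated at 0.976 to 0.983 with wild-type PS and at 0.959 to 0.966 with wild-type RS. Replicates correlated at 0.991 in homozygous RS and at 0.999 in the other groups. These are correlations over clusters that share depth and sequence, and they bear on every comparison below. The cluster tables hold no gene that could check a label, so groups are named by their labels throughout. Each comparison is given group by group for that reason.

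In the RNA libraries Ddx4 was at 443 and 521 CPM (counts scaled to library size) in wild-type round spermatids, 406 and 402 in heterozygotes, and 121 and 129 in homozygotes. The homozygous round spermatid libraries lay below all other round spermatid libraries. In CB libraries Ddx4 was at 277, 311 and 364 CPM in heterozygotes and 302, 306 and 243 in homozygotes, which overlap. Total counts were 15.3 to 24.9 M in round spermatids and 14.2 to 16.5 M in CB libraries. Summed round spermatid markers (17 genes) reached 10800 to 22010 CPM in round spermatid libraries and 1270 to 2135 in CB libraries. Spermatocyte markers (16 genes) summed to 1324 to 1453 and 1602 to 2361 CPM, and no list of markers had a gene at 0 in all libraries of a kind.

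The 80 clusters lie on 19 chromosomes, none on X or Y, with 10 on chromosome 1, 9 on chromosome 11 and 8 on chromosome 4. Of them 77 are named for a gene, against 26 of 30 hybrid and 7 of 100 pachytene clusters. The host was found by current symbol for 72, by older symbol for 4 (Ccrn4l, now Noct; D730040F13Rik, now Tmem245; Lsmd1, now Naa38; Mcart1, now Slc25a51) and by position for March08. In RefSeq the span of every host overlapped its cluster. A member spans 35420 bases in the median, from 122 to 599130, against 27636 for hybrid and 18040 for pachytene clusters. Zyg11a and Zyg11b, coding for substrate receptors of a cullin ubiquitin ligase, are neighbours 9832 bases apart, and Acvr2b, an activin receptor gene, and Exog lie 3050 bases apart.

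Per length, the members were the sparsest of the 3 classes. In wild-type PS a member held 29.8 reads per kilobase per M cluster reads in the median (0.476 to 96.1), against 45.5 for hybrid and 268 for pachytene clusters. The densest member was Cbx5, the gene of heterochromatin protein HP1 alpha, with 96.1 in wild-type PS and 34.5 in wild-type RS. The Spearman correlation of span with the share of reads was 0.87 over the 80 members. Reads were concentrated: the 10 members with the highest shares held 42.2% of the members' reads in wild-type PS and 40.2 to 42.2% in the other groups. Of those 10, between 8 and 10 were among the 10 highest in each other group.

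The members with the most reads in wild-type PS come first. Rad54l2, coding for a SNF2-family ATPase (chr9:106688081-106789172 in mm10, as the cluster names give it; whether starts count from 0 or 1 is not given), took 0.765 and 0.750% of cluster reads in the 2 wild-type PS libraries and 0.249 and 0.207% in wild-type RS. Phf20, a histone reader (chr2:156196657-156309951), took 0.734 and 0.720% against 0.315 and 0.266%. Cbfa2t2, a co-repressor with a role in germ cell specification (chr2:154436483-154539356), took 0.721 and 0.695% against 0.262 and 0.224%. All 3 were lower in both wild-type RS libraries than in both wild-type PS libraries. Nsd1, a histone H3K36 methyltransferase gene (chr13:55212056-55318324), and Lpp, which codes for a LIM-domain adhesion protein and has the longest span (chr16:24393445-24992575), averaged 0.613 and 0.593% in wild-type PS. Ppp1r12b, Zyg11b, Ankrd11, Cbx5 and Luzp1 completed the 10 highest there with 0.441 to 0.534%. In wild-type RS the 10 highest were the same except that Hmbox1, a homeobox gene (0.177%), stood in place of Luzp1 (0.155%).

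The summed share of the members was 13.9 and 13.7% of cluster reads in the wild-type PS libraries, 7.13 and 7.38% in heterozygous PS, and 16.4 and 14.7% in homozygous PS. In RS it was 5.78 and 4.96% in wild type, 10.5 and 9.07% in heterozygotes, and 14.5 and 13.3% in homozygotes. Within RS the order was wild type, heterozygous, homozygous, with no overlap between genotypes. With 2 libraries a group an exact permutation test cannot pass the threshold of 0.05, so the sums were not tested. Within PS the heterozygous libraries were the lowest and the homozygous ones the highest.

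**Figure D1:**
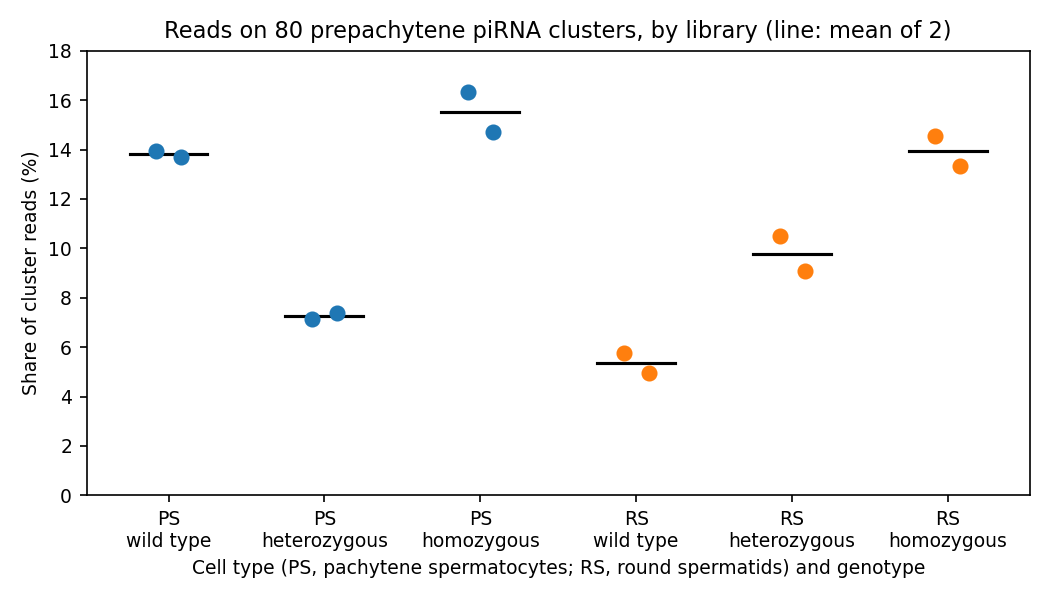
Percent of cluster reads on the 80 prepachytene clusters (vertical axis, linear from 0) in each of the 12 small RNA libraries, grouped by cell type and genotype (horizontal axis). Points are libraries and lines the mean of 2; wild-type PS (13.9 and 13.7%) lies far above wild-type RS (5.78 and 4.96%), while heterozygous PS (7.13 and 7.38%) lies below heterozygous RS (10.5 and 9.07%).

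As means, the members held 13.8 ± 0.164% (SD, n = 2 here and below) in wild-type PS, 7.26 ± 0.179% in heterozygous PS, 15.5 ± 1.15% in homozygous PS, 5.37 ± 0.574% in wild-type RS, 9.79 ± 1.02% in heterozygous RS and 13.9 ± 0.847% in homozygous RS. Wild-type PS was 2.57 times wild-type RS, and homozygous RS was 2.60 times wild-type RS. Pachytene clusters took the complement, 77.8 to 90.7%, and hybrid clusters 3.82 to 6.35%. Because shares add up to the whole of cluster reads, a higher share of members goes with a lower share of the others, and absolute amounts are not known.

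The ranking of the 80 clusters by share correlated at 0.943 to 0.999 (Spearman) between any pair of libraries, a description of levels, which also follow the span. For each cluster the log2 change of its share was tested with edgeR's quasi-likelihood test on counts, over all 214 clusters, with Benjamini-Hochberg adjustment at 0.05. "Rose" and "fell" below mean a call in that test.

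**Figure D2:**
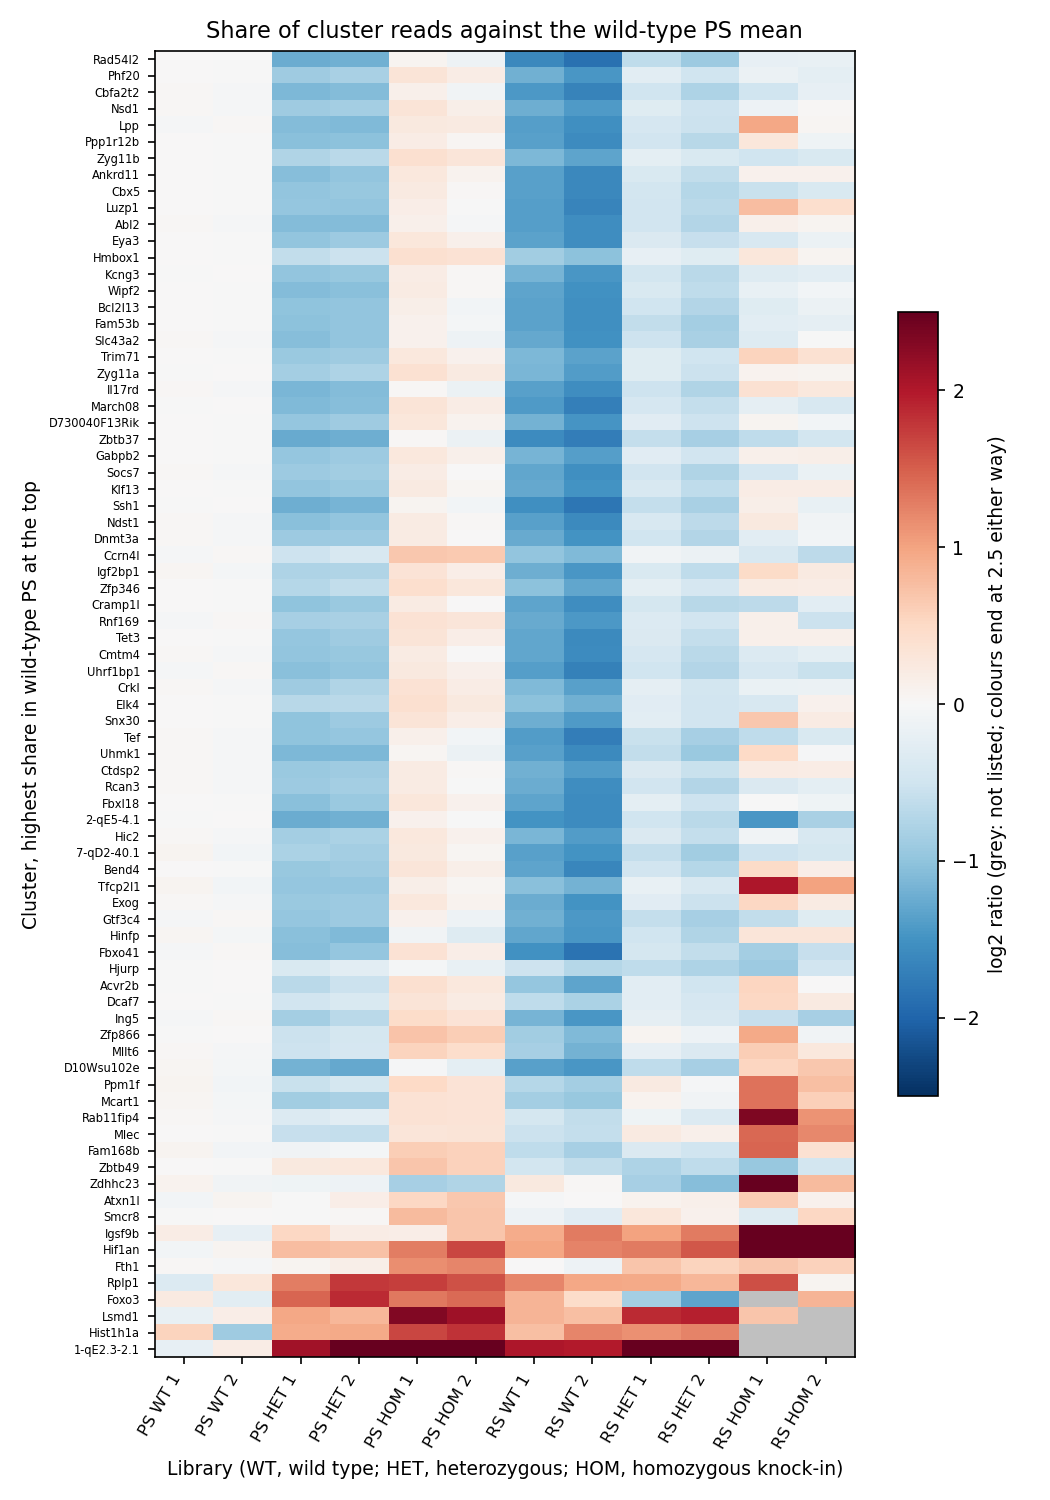
Share of cluster reads of the members (rows, all but 1, highest in wild-type PS at the top) in each library (columns), as log2 of the ratio to the mean of the wild-type PS libraries. Most rows share the pattern of the sum, pale in PS wild type and blue in RS wild type; the lowest 12 rows, from Zbtb49 down, and Tfcp2l1, Rab11fip4 and Zdhhc23 in homozygous RS depart from it. Grey cells are not listed in that library.

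The first comparison asks how prepachytene piRNAs differ between spermatids and spermatocytes. In wild type, 68 of the 80 members fell from PS to RS and 4 rose, against 53.7% of all 214 clusters that fell and 28.0% that rose. The median member changed by -1.32 on the log2 scale, and by -1.09 relative to the median of all clusters. Hybrid clusters had a median of -0.66 and pachytene clusters of 0.17. In 70 members both RS libraries lay below both PS libraries, and the matching share of all clusters is not given here. With TMM factors, which centre the changes on the bulk of clusters and move the median of all clusters from -0.23 to 0.31, 58 members fell and 7 rose, against 37.9 and 48.6% of all clusters.

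Rad54l2 fell by 1.73 on the log2 scale (SE 0.11, edgeR adjusted p = 1.1e-06). Zbtb37, a zinc finger gene, went from 0.204 and 0.202% in PS to 0.0679 and 0.0617% in RS and fell by 1.65. Ssh1, a cofilin phosphatase gene, and Fbxo41, an F-box gene, fell by 1.67 and 1.68, and Tef, a bZIP transcription factor gene, by 1.55. These members were lower in both RS libraries than in both PS libraries.

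The exceptions were clusters with few reads. Hif1an, the gene of the asparaginyl hydroxylase of HIF (chr19:44562847-44576272), took 0.00161 and 0.00179% in PS and 0.00336 and 0.00400% in RS, and rose by 1.11 (SE 0.18, edgeR adjusted p = 0.00020). Igsf9b, an immunoglobulin-superfamily adhesion gene (chr9:27340634-27357729), took 0.00352 and 0.00269% against 0.00592 and 0.00769%, a rise of 1.13. Their RS libraries lay above their PS libraries. Rplp1, coding for a ribosomal stalk protein, rose by 1.09, a call lost without PS wild-type library 1, RS wild-type library 1 or RS wild-type library 2 and without the heterozygous libraries in the fit (edgeR adjusted p from 0.0591 to 0.186). The last member that rose was the 122-base cluster described below. Over 76 members the change correlated with the wild-type PS share at a Spearman rho of -0.61, a description in which both axes share the PS libraries.

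In heterozygotes the difference lay the other way. RS exceeded PS in 54 members and lay below it in 3, against 54.2 and 15.4% of all clusters. The median member changed by 0.42, and by 0.12 relative to the median cluster. Mcart1, coding for a mitochondrial carrier, went from 0.0111 and 0.0116% in PS to 0.0215 and 0.0190% in RS, a rise of 0.84 (SE 0.20, edgeR adjusted p = 0.0054). Mlec, the gene of the ER lectin malectin, rose by 0.77. Zbtb49, a zinc finger gene, fell from 0.00631 and 0.00637% to 0.00312 and 0.00342%, by 0.95 on the log2 scale (edgeR adjusted p = 0.0012). The count of 54 depended on the scaling and on single libraries: with TMM factors it was 18 higher and 3 lower (23.8 and 24.8% of all clusters), with DESeq2 27 and 4 (28.5 and 24.8%), without PS heterozygous library 1 28 and 1 (34.6 and 13.6%), and without RS heterozygous library 1 24 and 1 (34.1 and 14.5%).

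In homozygotes 13 members were higher in RS and 36 lower, against 27.6 and 47.2% of all clusters. The median member changed by -0.21, and by -0.06 relative to the median cluster. Of the 36, 3 rest on clusters not listed in a homozygous RS library and set to 0 there. The split turned with the scaling, to 30 higher and 14 lower under DESeq2 (43.5 and 23.4% of all clusters). Without PS homozygous library 1 it was 12 and 19 (24.8 and 36.4%). Ccrn4l, coding for the circadian protein nocturnin, took 0.258 and 0.253% in PS and 0.122 and 0.103% in RS, and fell by 1.18 (SE 0.09, edgeR adjusted p = 1.8e-06).

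**Figure D3:**
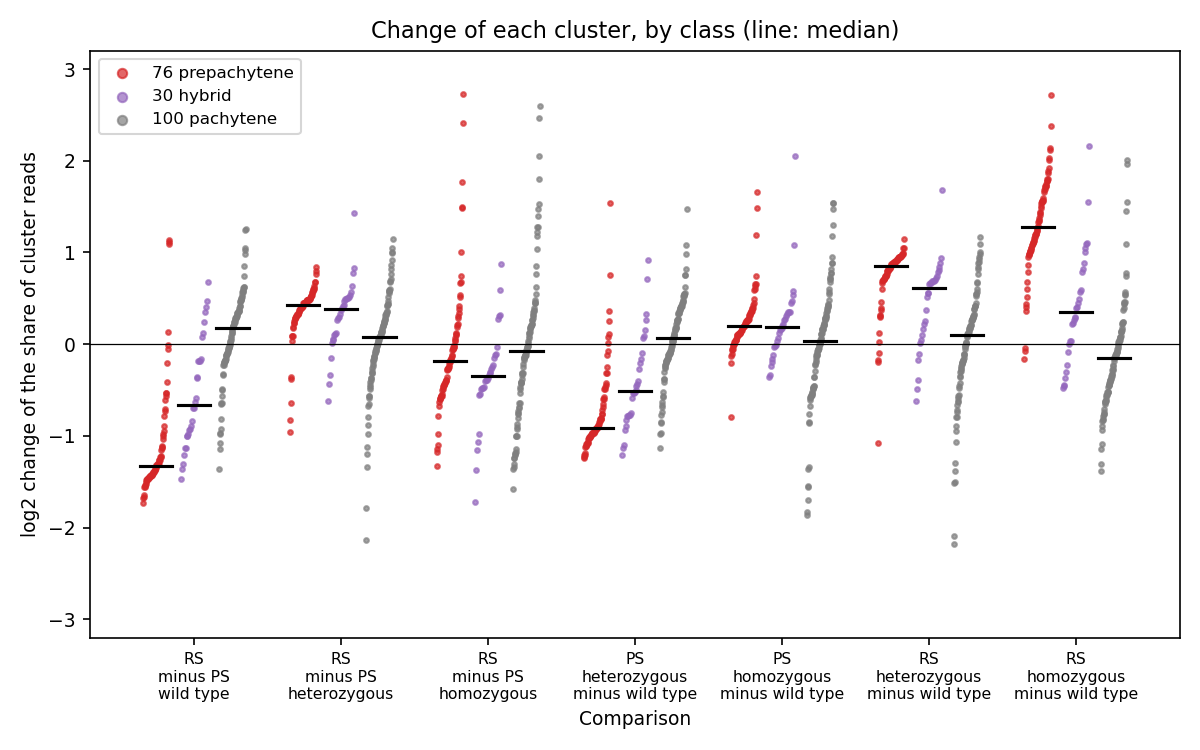
log2 change of the share of cluster reads (vertical axis) of every cluster listed in all 12 libraries, for 7 comparisons (horizontal axis); points are clusters, coloured by class, and lines are class medians. The median of the prepachytene clusters is lowest for RS minus PS in wild type and highest for homozygous minus wild type in RS, with hybrid clusters between them and the pachytene clusters in most comparisons.

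Within PS, the heterozygous libraries stood below wild type. Of the members, 63 fell and 3 rose, against 52.3 and 23.8% of all clusters, with a median change of -0.91, or -0.65 relative to the median cluster. Zbtb37 went from 0.204 and 0.202% in wild type to 0.0848 and 0.0874% and fell by 1.24 (SE 0.10, edgeR adjusted p = 8.1e-06). D10Wsu102e fell by 1.23, and Rad54l2 by 1.21. Both heterozygous libraries lay below both wild-type libraries for Zbtb37. Hif1an rose by 0.75, and Rplp1 by 1.53, a call lost without PS wild-type library 1 (edgeR adjusted p = 0.0624) or PS heterozygous library 2 (0.0505).

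In homozygous PS the change of the median member from wild type was small. Over the hybrid and pachytene clusters these libraries were less like wild-type PS (Spearman 0.957 to 0.961) than heterozygous PS were (0.973 to 0.975). Of the members 19 rose and none fell, against 34.1 and 15.4% of all clusters, and the median change was 0.20, or 0.04 relative to the median cluster. This count was the least stable: 49 rose with TMM factors (55.1% of all clusters), 4 rose and 5 fell with DESeq2 (15.9 and 27.6%), and 7, 8 and 9 rose without PS wild-type library 1, PS wild-type library 2 and PS homozygous library 1 (25.7, 26.2 and 26.2%). Ccrn4l took 0.258 and 0.253% in homozygous PS. Hif1an took 0.00415 and 0.00538% against 0.00161 and 0.00179% in wild type, a rise of 1.49 (SE 0.18, edgeR adjusted p = 5.4e-05). Against heterozygous PS, 70 members rose and none fell (60.3 and 20.1% of all clusters), with a median of 1.07, or 0.44 relative to the median cluster. March08, a membrane-bound ubiquitin ligase gene, rose by 1.34, from 0.0961 and 0.0988% to 0.258 and 0.236%.

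Within RS, prepachytene clusters took a larger share of cluster reads in the homozygous libraries than in wild type. Of the members 71 rose and 2 fell, against 53.7 and 28.5% of all clusters. The median member changed by 1.24, or 0.91 relative to the median cluster, while the hybrid median was 0.35 and the pachytene median -0.15. The 2 that fell, Hist1h1a and the 122-base cluster, are not listed in either homozygous library. Their calls rest on counts set to 0 there. Dnmt3a, the gene of a de novo DNA methyltransferase (chr12:3891106-3914443), took 0.0702 and 0.0594% in wild type and 0.139 and 0.159% in homozygotes. Tet3, coding for a DNA dioxygenase that oxidises methylcytosine (chr6:83362373-83441608), took 0.0588 and 0.0485% against 0.159 and 0.159%. For both genes the homozygous libraries lay above the wild-type ones, with no overlap. Their log2 changes of 1.20 and 1.57 lay between the quartiles of the members (1.04 and 1.68), so they did not stand out among them.

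The largest rise was that of Tfcp2l1, a transcription factor gene of pluripotent stem cells (chr1:118627944-118685162). It took 0.0312 and 0.0281% in wild-type RS and 0.260 and 0.129% in homozygous RS, against 0.0281 to 0.0713% in the other 10 libraries. Its log2 change was 2.71 (SE 0.27, edgeR adjusted p = 7.1e-06), and 2.12 without RS homozygous library 1. Rab11fip4, coding for an effector of Rab11 in membrane recycling (chr11:79660712-79698022), took 0.0147 and 0.0129% against 0.1001 and 0.0432%, a rise of 2.37 that was 1.64 without RS homozygous library 1. For both genes the homozygous libraries lay above all others, and library 1 was more than 2 times library 2.

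Hif1an (0.00336 and 0.00400% against 0.0163 and 0.0162%) and Luzp1, coding for an actin- and centrosome-associated protein (0.169 and 0.141% against 0.756 and 0.591%), rose by 2.14 and 2.12. Lpp took 0.227 and 0.204% in wild type and 1.15 and 0.610% in homozygotes, and rose by 2.03. Hjurp, the gene of the CENP-A chaperone (chr1:88263113-88277518), stayed at 0.0327 and 0.0286% against 0.0248 and 0.0336%, a change of -0.07 (SE 0.14) that did not pass the test. With TMM factors it was -0.53 and passed (edgeR adjusted p = 0.0025). Its libraries overlapped between the genotypes.

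**Figure D4:**
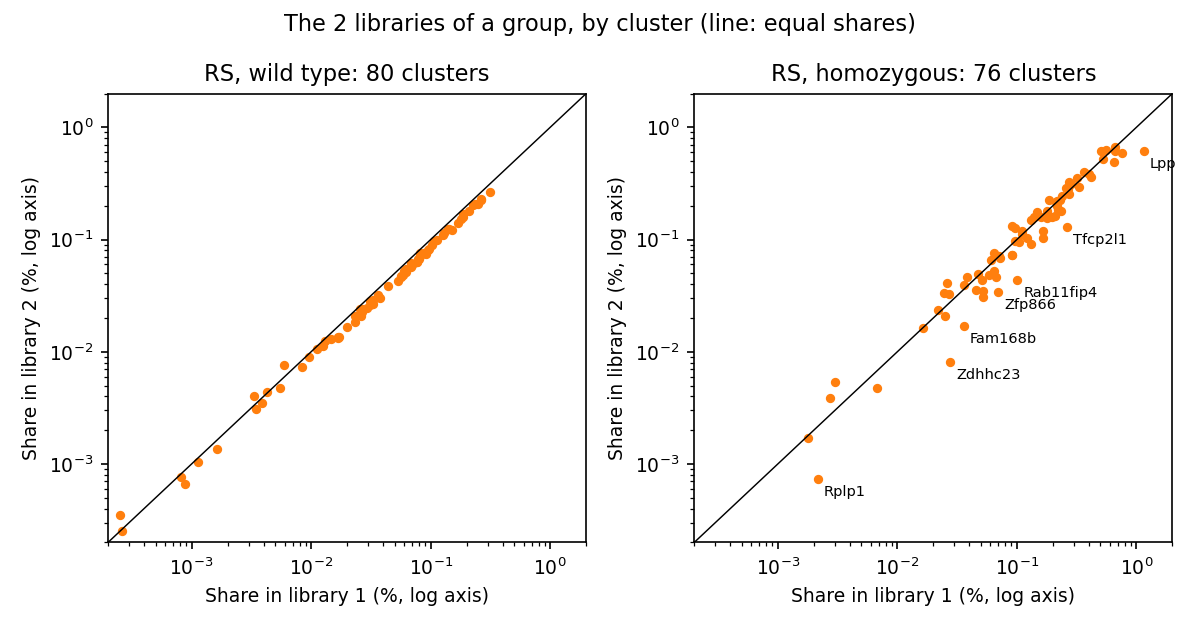
Share of cluster reads of each member in library 2 against library 1 (log axes, in percent) for wild-type RS (left, 80 clusters) and homozygous RS (right, 76 clusters listed in both); the line marks equal shares. Wild-type points follow the line at a nearly constant distance, while homozygous points scatter and Zdhhc23, Rplp1, Rab11fip4, Fam168b, Zfp866, Tfcp2l1 and Lpp are higher in library 1.

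The homozygous RS libraries differed from each other more than other pairs. The shares differed by more than 1.5 times between the libraries for 12 of 76 members there, for 2 of 80 in wild-type PS and for none in the other 4 groups. The widest gap was at Zdhhc23, a palmitoyltransferase gene (chr16:43964765-43979030), with 0.0275 and 0.0081%, 3.39 times apart. In the other 10 libraries it took 0.00222 to 0.00547%, so both homozygous values were above all of these.

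Heterozygous RS libraries lay between. Of the members 66 rose against wild type and 1 fell, against 62.1 and 18.7% of all clusters, with a median of 0.84, or 0.41 relative to the median cluster. Fbxo41 took 0.0169 and 0.0135% in wild type and 0.0357 and 0.0315% in heterozygotes, a rise of 1.15 (SE 0.14, edgeR adjusted p = 4.9e-05). March08 and Fbxl18, an F-box gene, each rose by 1.05. The member that fell was Zdhhc23, from 0.00547 and 0.00474% to 0.00262 and 0.00222% (log2 -1.08, edgeR adjusted p = 0.041), a call lost without any 1 of the 4 libraries compared (0.0731 to 0.157).

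Between homozygous and heterozygous RS, 47 members rose and 6 fell, against 41.1 and 33.6% of all clusters, with a median of 0.46, or 0.28 relative to the median cluster. Of the 6, 3 (Hist1h1a, Lsmd1 and the 122-base cluster) rest on clusters not listed in a homozygous RS library and set to 0 there. Zdhhc23 rose by 2.88 (SE 0.45, edgeR adjusted p = 0.00028), and by 1.74 without RS homozygous library 1. Igsf9b took 0.00623 and 0.00762% in heterozygotes and 0.0217 and 0.0234% in homozygotes, a rise of 1.70. Ccrn4l fell by 0.40, Ing5, a reader of histone H3K4 methylation, by 0.40, and the unnamed cluster on chromosome 2 by 0.52. The call of Ing5 was lost without RS heterozygous library 1 or RS homozygous library 2, that of the unnamed cluster without RS heterozygous library 1, and both when only the compared libraries were fitted (edgeR adjusted p = 0.127 for Ing5 and 0.13 for the cluster). The comparisons of homozygotes and of heterozygotes with wild type share the wild-type libraries.

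Whether the genotype difference itself differed between RS and PS was tested as an interaction. For homozygous minus wild type, the difference was larger in RS for 66 members and smaller for 5, against 51.4 and 29.4% of all clusters (80.8% in either direction), with a median of 1.04, or 0.74 relative to the median cluster. The same 3 unlisted clusters are among the 5. With TMM factors the split was 45 and 11 (29.9 and 50.0% of all clusters). For heterozygous minus wild type, a contrast added after the data had been seen, it was larger in RS for 66 members and smaller for 3 (55.1 and 23.4% of all clusters, 78.5% in either direction), with a median of 1.74, or 1.21 relative to the median cluster. In PS the heterozygous libraries were lower than wild type and in RS higher.

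A gene name is missing for 3 members. The cluster 7-qD2-40.1 (chr7:75769041-75782107), at the long non-coding RNA gene AU020206, took 0.0703 and 0.0646% in wild-type PS, 0.0264 and 0.0238% in wild-type RS and 0.0473 and 0.0496% in homozygous RS. The cluster 2-qE5-4.1 (chr2:120692588-120715137), within the span of Stard9, took 0.0716 and 0.0718%, 0.0254 and 0.0241%, and 0.0262 and 0.0410% in the same groups. For 2-qE5-4.1 the log2 change between homozygous and wild-type RS was 0.44, 0.11 relative to the median cluster and -0.03 with TMM factors, against the member median of 1.24 given above. The third, 1-qE2.3-2.1, spans 122 bases (chr1:118459144-118459266) within the span of Clasp1, at the long non-coding RNA gene 2900060B14Rik.

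That cluster took 5.57e-05 and 7.32e-05% in wild-type PS, 0.000262 and 0.000254% in wild-type RS and 0.000626 and 0.000446% in homozygous PS, and is listed in neither homozygous RS library. It was the lowest member in wild-type PS, followed by Hist1h1a, a linker histone gene (0.000219 and 8.05e-05%), and Lsmd1, coding for a subunit of the NatC acetyltransferase (0.000401 and 0.000509%). Hist1h1a is also not listed in either homozygous RS library, Foxo3, a forkhead transcription factor gene, not in library 1 and Lsmd1 not in library 2. The lowest listed share was 0.000737% in both homozygous RS libraries (86 and 68 reads) and 0.000195 to 0.000289% in the other RS and heterozygous PS libraries. In the wild-type PS libraries clusters were listed down to 15 and 20 reads (5.57e-05 and 7.32e-05%). The rule for listing a cluster is not given, so the lowest listed share need not be a cutoff. How far an unlisted cluster lay below its level in wild type is not known, and no fold is given for these 4.

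The members were also grouped by what the host genes do. The 13 members of chromatin genes (such as Rad54l2, Phf20, Nsd1, Cbx5, Dnmt3a and Tet3) held 4.33% of cluster reads in wild-type PS and 1.58% in wild-type RS, and 12 fell with a median of -1.37. The 10 cytoskeleton, membrane and traffic genes (such as Lpp, Luzp1 and Rab11fip4) held 2.19 and 0.835%, and 7 fell. The 11 kinase, phosphatase and signalling genes (such as Abl2, a tyrosine kinase gene, and Acvr2b) held 2.09 and 0.777%, and all 11 fell. The 8 ubiquitin ligase genes (such as Zyg11b), the 11 transcription factor genes (such as Klf13 and Elk4) and the 5 genes of RNA binding and translation (such as Igf2bp1, an mRNA-binding protein gene, and Trim71, a let-7 target that represses mRNAs) held 1.54, 1.35 and 0.702% in wild-type PS, with 8, 10 and 4 that fell. All 80 members had a median of -1.32, with 68 that fell. In homozygous against wild-type RS the group medians ran from 1.11 for transcription factors to 1.75 for the cytoskeleton and membrane group, around 1.24 for all members. The groups were drawn up with earlier results known and were not tested against each other.

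The host genes were next read as RNA. In wild-type round spermatids the 77 hosts had a median of 2.43 TPM (a transcript level scaled to length and library size), 25 were under 1 TPM and 18 over 10. Rplp1 was the highest, with 1606 and 1175 TPM. Naa38, the host of Lsmd1, Dcaf7, coding for a WD40 adaptor protein, Fth1, the ferritin heavy chain gene, and Lpp followed with means of 173, 135, 102 and 90.6 TPM. The hosts of the clusters with the most reads were far lower, at 0.62 and 2.78 TPM for Rad54l2, 3.37 and 6.10 for Phf20 and 2.55 and 3.31 for Cbfa2t2. Kcng3, a potassium channel subunit gene, averaged 0.015 TPM. Over 74 members the density of piRNA reads per kilobase and the host's TPM in wild-type round spermatids correlated at a Spearman rho of 0.07, a description across genes from separate libraries.

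In heterozygous CB libraries the hosts had a median of 16.9 TPM, with 57 over 10 and none under 1. Luzp1 was the highest there with a mean of 264 TPM, and Rplp1 averaged 85.1. Rad54l2 had 32.3, 34.4 and 28.6 TPM and Nsd1 59.1, 75.2 and 71.6. CB and round spermatid libraries differ in kit, input and labelled cells, and were not tested against each other. In bulk samples such as these, fewer cells of a type and less RNA per cell cannot be told apart.

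The RNA comparison asks whether the transcripts of these genes change with the knock-in. Of 75 hosts tested in round spermatids, 2 were higher in homozygotes than in wild type and none lower, against 2.39 and 0.472% of all 17809 genes. Elk4, coding for an ETS-family transcription factor, stood at 1.52 and 1.31 CPM in wild type and 6.26 and 6.44 in homozygotes. Its log2 change was 2.16 (SE 0.23, edgeR adjusted p = 0.0143). Zbtb37 stood at 8.33 and 9.69 against 18.9 and 16.1 CPM, a rise of 0.96 (SE 0.17, edgeR adjusted p = 0.0449). Homozygous values of both genes were above both wild-type values.

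Both calls were lost when either homozygous or either heterozygous library was left out (edgeR adjusted p from 0.0719 to 0.385) and when only the 4 libraries compared were fitted (0.0736 and 0.164). Without RS wild-type library 1 or 2, 21 and 45 hosts were higher, against 13.3 and 24.2% of all genes, and 8 and 5 lower, against 13.1 and 20.9%. Wild-type library 1 stood apart in the round spermatid markers, at the 22010 CPM given above against 11470 in library 2. The median host changed by 0.40, against -0.00 over all genes, and by 0.13 without that library or with the trend on transcript length removed. At an unadjusted p under 0.05, 21 hosts were higher and 4 lower, against 12.2 and 10.5% of all genes. Below that level but not passing the adjusted test were Fam53b (2.72 and 5.96 against 12.7 and 13.3 CPM) and Zbtb49 (6.48 and 6.45 against 3.23 and 2.93 CPM, edgeR adjusted p = 0.0526).

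Dnmt3a RNA was at 1.15 and 3.62 TPM in wild type and 6.02 and 5.54 in homozygotes, and Tet3 RNA at 0.05 and 0.26 against 0.23 and 0.31; neither passed the test. Tfcp2l1, whose cluster rose most, had RNA at 0.51 and 1.01 TPM in wild type, 1.30 and 1.34 in heterozygotes and 0.58 and 0.57 in homozygotes. In TPM the homozygous values of Tfcp2l1 lay within the wild-type range. In CPM, the scale of the fit, they were 4.36 and 4.24 against 4.74 and 7.64, below both wild-type values (log2 -0.53, edgeR adjusted p = 0.275), and with the trend on transcript length removed the edgeR adjusted p was 0.0154. Its cluster share in both homozygous RS libraries was above that in every other library.

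**Figure D5:**
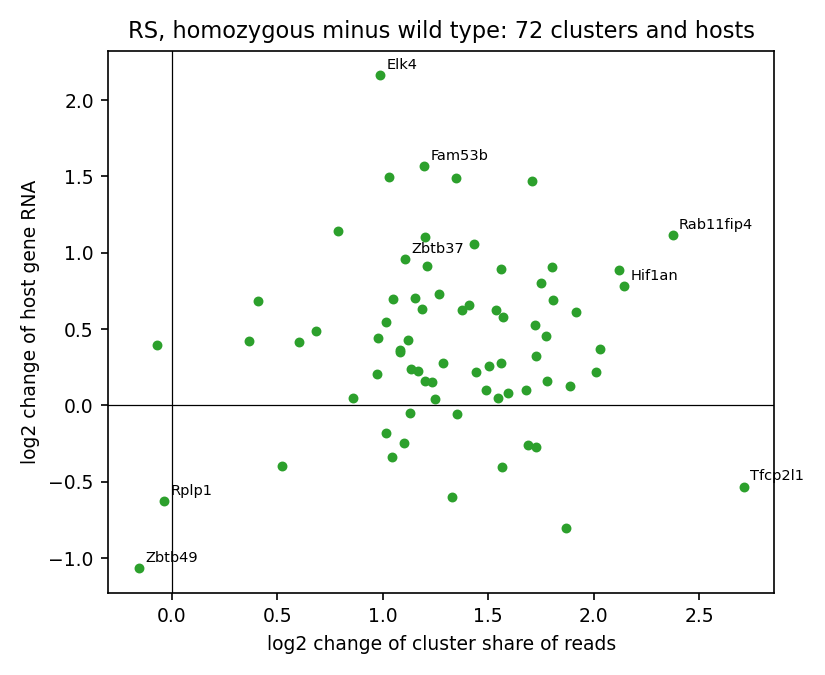
log2 change of host gene RNA (vertical axis) against log2 change of the cluster's share of reads (horizontal axis), homozygous minus wild type in round spermatids, for the 72 members listed in all libraries with a tested host; each point is a member. Points spread with no common slope (Spearman rho 0.04), Elk4 is highest on the RNA axis and Tfcp2l1 farthest right.

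Over 72 members with both measures, the change of the cluster and that of its host RNA correlated at a Spearman rho of 0.04 for homozygous minus wild type, 0.03 for heterozygous minus wild type and -0.16 for homozygous minus heterozygous. These are descriptions across genes, which are not independent replicates. For homozygous minus wild type, 57 members had both values above 0 and 12 a higher cluster share with a lower host RNA. The reverse held for 1, and 2 had both values below 0. Because nearly all clusters and most hosts lay above 0 separately, the count of 57 does not measure agreement between a cluster and its host.

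No host was called between heterozygous and wild-type round spermatids by edgeR (0.0% of all genes were) or by DESeq2. At an unadjusted p under 0.05, 8 were higher and 1 lower, against 3.37 and 3.90% of all genes, and without RS wild-type library 2, 42 and 5 were called (21.5 and 20.5% of all genes). Between homozygotes and heterozygotes edgeR called no host either, against 1.36% of genes higher and 0.371% lower. At an unadjusted p under 0.05 it was 12 hosts higher and 6 lower (10 and 6.67% of genes). By DESeq2 the counts were 2 and 1 (3.03 and 1.4% of genes). Without RS wild-type library 1 they were 19 and 10 (15.4 and 14.7%), and without library 2 they were 19 and 8 (15.1 and 14.1%). Elk4 was at 2.94 and 2.42 CPM in heterozygotes against 6.26 and 6.44 in homozygotes (log2 1.24, edgeR adjusted p = 0.0589).

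In CB libraries 3 of 77 hosts were higher in homozygotes than in heterozygotes and none lower, against 1.16 and 0.559% of all 19335 genes. Bcl2l13, a BCL2-like gene of mitochondria, stood at 44.3, 39.5 and 38.8 CPM in heterozygotes and 65.8, 60.9 and 70.3 in homozygotes, a rise of 0.68 (SE 0.11, edgeR adjusted p = 0.0127). Rab11fip4 went from 60.5, 57.7 and 59.2 to 78.0, 82.0 and 85.5 CPM, a rise of 0.47 (SE 0.10, edgeR adjusted p = 0.0384).

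For these 2 the groups did not overlap. Both calls were lost when any 1 of CB heterozygous libraries 2 and 3 or of the 3 homozygous libraries was left out (edgeR adjusted p from 0.0587 to 0.192), while without CB heterozygous library 1, 13 hosts were higher and 6 lower (7.09 and 3.96% of all genes). With the trend on transcript length removed, edgeR kept Bcl2l13 and lost Rab11fip4 (adjusted p = 0.0776). The median host changed by 0.08, against -0.00 over all genes. Summed round spermatid markers were 1270 to 1317 CPM in homozygous and 1504 to 2135 in heterozygous CB libraries, and their part in these differences was not tested.

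The piRNA pathway was read from a list of 33 genes, of which 31 were tested. Between homozygous and wild-type round spermatids 2 rose and 1 fell, against 2.39 and 0.472% of all genes. Piwil2, the PIWI protein that binds prepachytene piRNAs, rose from a mean of 25.5 to 59.9 CPM (log2 1.23, SE 0.19, edgeR adjusted p = 0.0312). Tdrd1, a Tudor scaffold protein of germ granules that binds PIWIL2, rose from 19.1 to 42.4 CPM (log2 1.15, SE 0.18, edgeR adjusted p = 0.0337). Ddx4 itself fell by 1.95 (edgeR adjusted p = 0.00543). These calls come from the same fit as those of Elk4 and Zbtb37, which were lost without single libraries. For the pathway genes, here and in CB libraries, no such check is given.

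No pathway gene was called between heterozygous and wild-type round spermatids, and between homozygotes and heterozygotes Ddx4 fell by 1.69. In CB libraries Henmt1, the methyltransferase of piRNA 3′ ends (log2 0.52), Spocd1, a factor of piRNA-directed DNA methylation (0.71), and Morc1, a gene of transposon silencing (1.05), were higher in homozygotes. Their edgeR adjusted p-values were 0.0389, 0.0329 and 0.0174, and 1.16% of all genes were called higher in that comparison. Immune markers moved with the same contrast in round spermatids, summing to 38.1 to 40.1 CPM in homozygotes and 17.0 to 17.3 in wild type, and were at 27.7 to 28.4 in heterozygotes. Sertoli cell markers summed to 36.6 to 37.4 CPM in homozygotes against 56.5 to 64.7 in wild type, Leydig cell markers to 15.3 to 16.7 against 5.504 to 8.11, and peritubular and vascular markers to 186 to 191 against 285 to 286. Within the peritubular and vascular list Actg2 fell from a mean of 252 to 129 CPM. In the same list Acta2 and Dcn rose by 1.53 and 0.96 on the log2 scale, and the median change of the 11 tested genes was 0.25. None of the 4 marker sums overlapped between homozygotes and wild type. Their part in the differences of host and pathway genes was not tested.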

How the data were processed

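Small RNA reads per piRNA cluster (whole-number counts, 1 table per library) and, for RNA, expected counts, TPM and FPKM per gene were made and deposited by the authors, as the file headers show. Reads had been trimmed with Trim Galore and the build was mm10, per the submitters' processing notes. The aligner, the counter, its filters and its use of strand: not given in the sources used here. FPKM values deposited by the authors were read but give no result.

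A cluster's share is its count divided by the count over all listed clusters, and a cluster not listed in a library was set to 0. Counts of all 214 clusters were fitted with edgeR 4.0.16 (R 4.3.3; quasi-likelihood, normalization factors of 1, 12 libraries in 6 groups). Expected counts were rounded to whole numbers, filtered with filterByExpr and fitted with TMM factors, separately for 6 round spermatid and 6 CB libraries. DESeq2 1.42.0, TMM factors, no filter, a replicate block, removal of the trend of log2 change on transcript length, the compared libraries alone and leaving out each library were alternatives. Some were chosen after seeing the data: leaving the heterozygous libraries out of the fit, leaving unlisted members out, and the heterozygous interaction. The fits were tested on simulated data.

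Members and lists were chosen with earlier results of these data known. Named were the 10 highest members in wild-type PS and RS, the 3 lowest, up to 5 called members or hosts in each direction and comparison whose libraries did not overlap, members without a gene name and unlisted members. Pathway genes are named where called. Dnmt3a, Tet3, Hjurp and the hosts Fam53b and Zbtb49 were chosen after their values were seen. The values of 1 member are not reported here, though it stays in the fits and counts.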

Additional observations from a re-analysis of the deposited data

Results flagged for a closer look

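The difference between homozygotes and wild type was not the same in RS and PS for 71 of the 80 members, by edgeR's test of the interaction. This compares with 80.8% of all 214 clusters. Of the 71 members, 3 (Hist1h1a, Lsmd1 and 1-qE2.3-2.1) rest on clusters not listed in a homozygous RS library and set to 0 there. The difference was larger in RS by 2.61 on the log2 scale for Tfcp2l1, 2.60 for Zdhhc23, 2.15 for D10Wsu102e, 2.04 for Luzp1 and 2.02 for Rab11fip4. It was smaller in RS for Rplp1 (-1.69) and Zbtb49 (-0.79). The call of Rplp1 was lost without PS wild-type library 1, PS homozygous library 1 or RS wild-type library 1 (edgeR adjusted p from 0.0572 to 0.0842).

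The difference between heterozygotes and wild type, a contrast added after seeing the data, was not the same in RS and PS for 69 members, against 78.5% of all clusters. It was larger in RS by 2.18 for Rad54l2, 2.18 for Zbtb37, 2.17 for 2-qE5-4.1, 2.16 for Fbxo41 and 2.15 for Ssh1, and smaller for Rplp1 (-1.73), whose call was lost without PS wild-type library 1, PS heterozygous library 2, RS wild-type library 1 or RS heterozygous library 2 (edgeR adjusted p from 0.0601 to 0.0763). Both interactions share the wild-type libraries. The libraries labelled heterozygous PS and wild-type RS had nearly the same profile over the other clusters, as described above, and its part in these differences was not tested.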

How the results depend on the processing

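Among 79 results on named members and hosts, 727 of 805 alternative values kept direction and side of the threshold, 78 fell short of it and 0 changed direction. These results had been picked from the same data as called, with large changes and libraries that did not overlap. A change of direction was therefore hardly possible when a library was left out, and its absence is no test of them. Counts of called members kept within 1.5 times under every alternative run in 8 of 11 small RNA comparisons. RS minus PS in heterozygotes (57) was 21 with TMM factors and 31 with DESeq2, and 25 to 57 with 1 library left out. RS minus PS in homozygotes (49) was 30 with only the compared libraries, and 31 to 56 with 1 left out. Homozygous minus wild-type PS (19) was 49 with TMM factors, 9 with DESeq2, 53 with only the compared libraries, and 7 to 15 with 1 left out. The cause of these moves was not tested. Shares of all clusters with TMM factors and DESeq2 stand with these comparisons above. For only the compared libraries they are not given, so the counts of 30 and 53 are not set against all clusters.

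Called hosts, homozygous minus wild type in round spermatids (2), were 11 with DESeq2 (7.23% of all genes were called), 14 with no filter (5.81%), 19 with the length trend removed (13.9%), 0 with only the compared libraries (0.0751%) and 0 to 50 with 1 left out (0.0 to 45.1%). Heterozygous minus wild type (0) gave 0 to 47 with 1 left out (0.0 to 42.0%). Homozygous minus heterozygous (0) gave 3 with DESeq2 (4.42%), 4 with no filter (3.13%), 16 with the length trend removed (9.76%), 28 with only the compared libraries (32.3%) and 0 to 29 with 1 left out (0.0 to 30.1%). In CB (3) it was 5 with no filter (2.2%) and 0 to 19 with 1 left out (0.256 to 11%).

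Replicate numbers were not used to pair the libraries. Deviations of same-numbered libraries from their group means correlated at -0.44 to 0.76. The highest values, 0.69 to 0.76, were among homozygous PS, wild-type RS and heterozygous RS. With 2 libraries a group the deviations mirror each other, so these values cannot tell whether same-numbered libraries share more than a number. With the number as a block, called hosts were 1 in round spermatids (homozygous minus wild type) and 1 in CB, and called members stayed within 1.5 times.

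Without the 3 clusters with the most reads, the members held 15.4% in wild-type, 8.40% in heterozygous and 17.8% in homozygous PS, and 6.20, 11.4 and 15.6% in RS. All 84 prepachytene clusters held 14.1% in wild-type PS. The median member, taken in each library and averaged over the 2, held 0.122, 0.0691 and 0.149% in PS and 0.0499, 0.0922 and 0.109% in RS. Low counts limit the 4 unlisted members and some listed ones. Rplp1 took 0.000737% in homozygous RS library 2 and differed 2.93 times between the 2 libraries of that group. In each group 9 to 14 members held under 0.01% of cluster reads.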
